A study of Mus musculus with 6 samples.

Results

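The genes described here encode proteins that sever, cap or remodel actin filaments: Gsn, Capg, Flii, Svil and Avil of the gelsolin superfamily, and the actin-depolymerizing factor (ADF)/cofilin genes Cfl1, Cfl2 and Dstn. They are 8 of the 46983 annotated features in the deposited table and were taken by gene name. The group was chosen by the measured log2 values of Gsn, far higher in Qk-KO than in WT, so the difference in Gsn is given below as a description without a test, and the other 7 genes were included as its relatives or as proteins of like function. RNA came from oligodendrocytes, which make myelin in the brain and spinal cord, isolated fresh and not cultured. All mice were FvB/C57BL6 hybrids, labelled as 8 weeks old. The Qk-KO group is Plp-CreERT2;QKLoxP/LoxP (genotype label Qk-/-), in which tamoxifen activates a Cre recombinase driven by the Plp promoter, and the controls are labelled WT. Both groups received tamoxifen at 8 weeks, and brains were taken 4 days later. Each group has 3 libraries. Whether each library is a mouse of its own is not stated in the labels, and the p-values therefore rest on a spread between libraries that may be technical. They also do not say whether the WT mice carried the Cre or the floxed alleles. The Plp promoter is active in oligodendrocytes, and whether cells of other kinds in the isolate kept Qk was not measured.

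Actin filaments grow at a barbed end and lose subunits at a pointed end. Gelsolin, when it binds calcium, cuts a filament and stays on the new barbed end as a cap, while ADF and the cofilins bind along older filament segments, sever them and speed their disassembly. In oligodendrocytes the assembly of actin drives the first extension of processes around the axon, and wrapping into compact myelin is known to go with filament disassembly by gelsolin and ADF/cofilin.

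Gsn has 3 annotated RefSeq starts (GRCm38.p6, plus strand of chromosome 2), and the gene is known to give both a cytoplasmic and a secreted plasma form of the protein. The deposited table holds a single value per gene, so it does not separate these starts. The 250 bases before each are shown because Gsn RNA could begin at any of the 3 starts. These windows lie at chr2:35256109-35256358 (start 1), chr2:35266494-35266743 (start 2) and chr2:35282130-35282379 (start 3). Capitals mark matches, on either strand, to the GC box (GGGCGG) and the CCAAT box (CCAAT).
Gsn start 1: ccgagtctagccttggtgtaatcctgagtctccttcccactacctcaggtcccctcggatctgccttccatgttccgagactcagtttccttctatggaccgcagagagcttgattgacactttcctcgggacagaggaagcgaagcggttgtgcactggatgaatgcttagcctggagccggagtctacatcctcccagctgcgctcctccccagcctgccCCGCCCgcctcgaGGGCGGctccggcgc
Gsn start 2: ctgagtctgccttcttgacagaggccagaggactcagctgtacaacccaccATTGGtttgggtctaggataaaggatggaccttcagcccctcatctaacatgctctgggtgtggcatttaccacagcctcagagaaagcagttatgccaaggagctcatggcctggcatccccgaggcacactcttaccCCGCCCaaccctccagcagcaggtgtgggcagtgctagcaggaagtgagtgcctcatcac
Gsn start 3: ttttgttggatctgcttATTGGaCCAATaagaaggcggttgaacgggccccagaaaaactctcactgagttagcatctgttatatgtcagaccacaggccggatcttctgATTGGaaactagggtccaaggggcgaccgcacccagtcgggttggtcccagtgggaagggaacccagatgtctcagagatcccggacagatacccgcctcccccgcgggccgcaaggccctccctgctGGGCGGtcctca
GC box matches numbered 2, 1 and 1, and CCAAT box matches 0, 1 and 3. Of all 32851 RefSeq windows of this length, 32.7% held the GC box and 33.8% the CCAAT box. Neither the TATA box (TATAAA, in 12.4% of windows) nor the CArG box of serum response factor (in 1.47%) was found in the 3 windows. Such a match is a stretch of letters and not a measured binding site.

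Quaking, the product of Qk, binds RNA at ACUAA sequences, often in 3′ UTRs. ACTAAC and ACTAAT (DNA letters, RNA strand only) were looked for in the 3′ UTR of 1 GENCODE M21 transcript of each of the 8 genes. Gsn (226 bases), Capg (108), Flii (170), Svil (859), Avil (431) and Cfl1 (349) held none. Cfl2 held 1 match in 2308 bases, and Dstn held 2 in 1088. The 3 matches are shown, in capitals, because they are the ones found in the group: Cfl2 at chr12:54858954-54858983 (minus strand), and Dstn at chr2:143942691-143942720 and chr2:143942937-143942966 (plus strand), all mm10.
Cfl2 ACTAAT match: ccttatgttgagACTAATttcacatcttat
Dstn ACTAAC match: cacctaatatacACTAACagcagtaagact
Dstn ACTAAT match: tgtctcgcaacaACTAATtatattgcaaat
Among genes with a 3′ UTR at least as long, 51.1% held a match within the first 2308 bases and 29.2% within the first 1088, so matches of this kind are common at these lengths. For 226 bases, the length of the Gsn 3′ UTR, the share was 6.30%. Binding was not measured in these data.

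Values below are the deposited log2 values, which behave as regularized ones, in which small counts are pulled toward the gene's mean. Differences are Qk-KO minus WT, with the standard error (SE) from limma, and adjusted p-values are limma's, adjusted by Benjamini-Hochberg over the 15153 features whose mean normalized count was 20 or more. A gene is called at an adjusted p under 0.05. The libraries were of unlike kind: 4 ribosomal RNA features took 59.8% to 64.8% of the signal in 4 libraries (all WT and Qk-KO replicate 1) against 1.88% to 2.23% in Qk-KO replicates 2 and 3, which held 70000000 to 77100000 approximate reads outside those features against 8700000 to 13100000 in the other 4. Of the 15153 features 4330 (28.6%) were called, 2087 higher (13.8%) and 2243 lower (14.8%). Scaling by library size alone moved the median change of all genes up by 1.06 and made this 2382 higher and 65 lower, so all changes are relative to the median gene. Because library kind and genotype overlap, Qk-KO replicate 1 against the 3 WT libraries, all of the same kind, is given beside the main results, with the lone Qk-KO library assumed to vary like the WT libraries. Fewer cells of a type and less RNA per cell cannot be told apart in these bulk samples.

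The isolate carried the markers of its label and also those of other cells. All 10 listed markers of mature oligodendrocytes were measured, 6 were called higher and none lower in Qk-KO, and their summed level was 510459 to 668138 normalized reads in WT and 697762 to 781264 in Qk-KO. Of 10 microglia markers 5 rose and none fell (sum 7493 to 11675 against 17130 to 67629), and all 8 activated phagocyte markers rose (976 to 1377 against 5750 to 38318). Astrocyte markers fell in 9 of 10 cases (141014 to 177178 against 18921 to 29919), endothelial markers in 8 of 8 (22916 to 32577 against 13412 to 14387), mural markers in 7 of 8 (18370 to 21735 against 10125 to 11077) and fibroblast markers in 4 of 4 (1251 to 2263 against 486 to 828). Of 3 tested border macrophage markers 1 fell (704 to 835 against 465 to 594), of 5 precursor markers 2 fell (14932 to 24953 against 6358 to 13771), and of 7 neuronal markers 1 rose (712 to 890 against 642 to 1027). No defining marker in these lists was at 0. These shifts were in the same libraries as the differences below, and their part in them was not tested.

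Gsn, the calcium-activated severing and capping protein gelsolin, had the highest level per kilobase of exon of the 8 genes in every library and stood far higher in Qk-KO. Gsn (ENSMUSG00000026879.14, chromosome 2, 35256380 to 35307892, plus strand, mm10) had log2 values of 13.54, 13.92 and 13.66 in the WT libraries (replicates 1, 2 and 3, as throughout) and of 15.73, 16.25 and 16.24 in the Qk-KO libraries. The lowest Qk-KO library lay well above the highest WT library. Its mean was 13.70 ± 0.19 in WT and 16.07 ± 0.30 in Qk-KO (SD, n = 3), a difference of 2.37 ± 0.21 (SE), or 5.17-fold. Against the WT mean the 3 Qk-KO libraries were 4.06-, 5.84- and 5.81-fold higher. In the authors' deposited table the Gsn difference is 2.72 ± 0.22 (SE).

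Leaving out each library in turn gave a Gsn difference of 2.28 to 2.54, and Qk-KO replicate 1 alone against WT gave 2.02. Since Gsn was chosen by its values in these libraries, these figures and the ranks that follow are description only. Ordered from the largest increase down, Gsn ranked 16 among the 15153 tested features, and 2 among the 188 features averaging 10000 or more normalized reads. In Qk-KO replicates 1, 2 and 3 Gsn stood 2.02, 2.55 and 2.54 log2 units above its WT mean. The summed mature oligodendrocyte markers stood 0.30, 0.47 and 0.34 above theirs, and the median change of the same 10 markers was 0.72, 0.86 and 0.77. The activated phagocyte sum stood 2.59, 2.29 and 5.03 above, and the fibroblast sum at -1.83, -1.15 and -1.06. The part of any of these cells in the Gsn values was not tested.

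**Figure D1:**
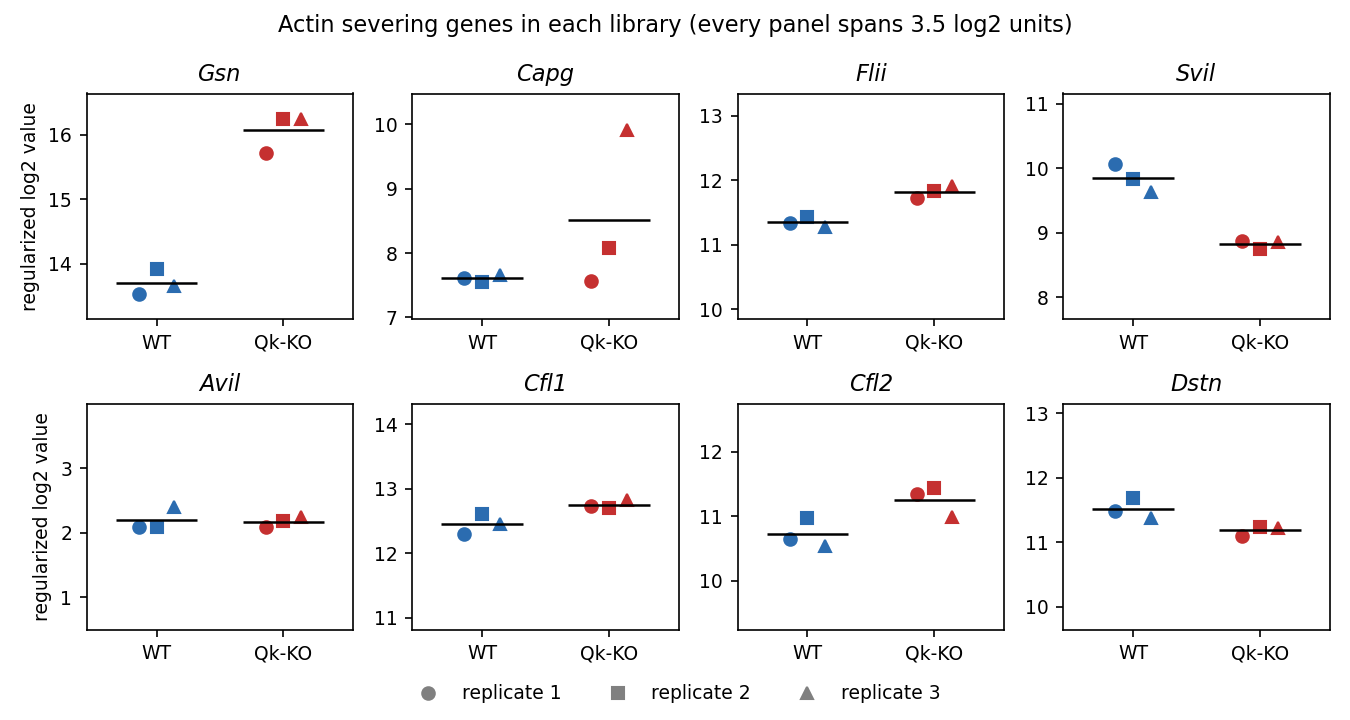
Regularized log2 value (vertical axis) of each of the 8 genes in the WT (blue) and Qk-KO (red) libraries, 1 symbol per library and a black line at the group mean, every panel spanning the same log2 range. Gsn lies at 13.54 to 13.92 in WT and 15.73 to 16.25 in Qk-KO, Svil is lower in all Qk-KO libraries, and Capg is high in Qk-KO replicate 3.

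Levels of different genes can be compared only per length. Per kilobase of exon, Gsn gave 3762, 4898 and 4094 normalized reads in WT against 17174, 24678 and 24552 in Qk-KO. Cfl1, the main non-muscle cofilin, followed with 1981 ± 207 in WT and 2430 ± 111 in Qk-KO, and Dstn, which encodes ADF (destrin), with 1537 ± 174 and 1222 ± 65 (SD, n = 3). Cfl2, the cofilin best known from muscle, had 521 ± 84 and 755 ± 119 and Flii had 518 ± 26 and 719 ± 47. These neighbours overlapped in both groups, so their order is not settled. Svil (86.7 ± 13.2 and 42.3 ± 1.9) and Capg (77.1 ± 3.3 and 187 ± 167) lay lower, and their order in WT differed between libraries. Avil was lowest at 1.4 ± 0.2 and 1.3 ± 0.1. Of the summed level per kilobase of the 8 genes, Gsn made up 45.8%, 48.3% and 47.8% in WT against 77.0%, 82.3% and 81.4% in Qk-KO. Among 15077 tested genes with a known exon length Gsn held ranks 108, 102 and 100 in WT, against 46, 27 and 27 in Qk-KO.

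**Figure D2:**
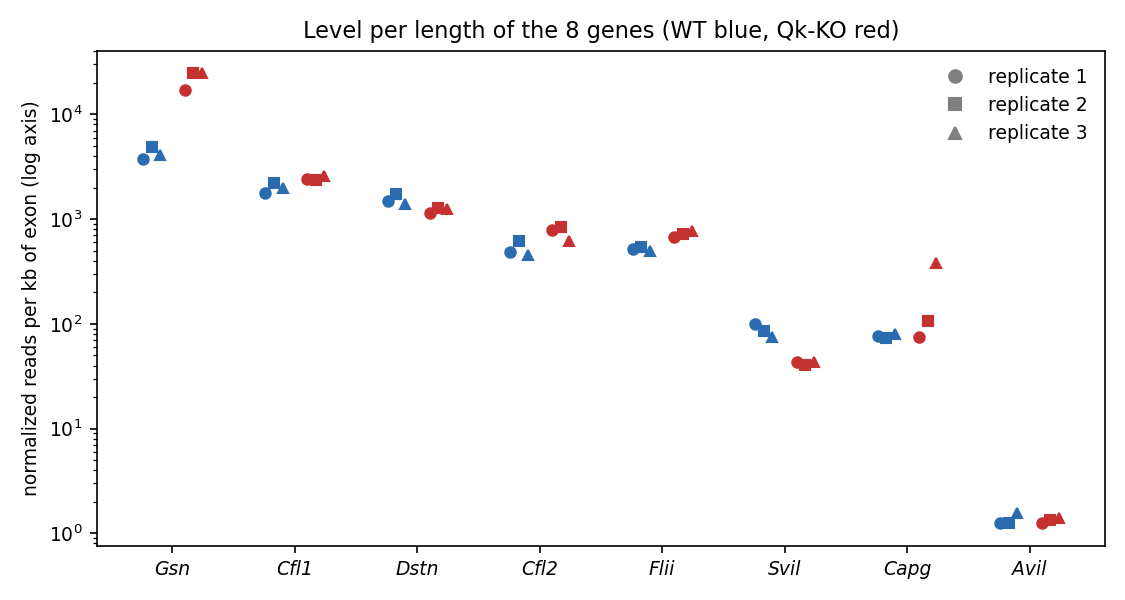
Normalized reads per kilobase of exon (log axis) for the 8 genes, ordered by the WT mean, 1 symbol per library (WT blue, Qk-KO red). Gsn is first in every library, at 3762 to 4898 in WT and 17174 to 24678 in Qk-KO, and Avil is last at 1.3 to 1.6.

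Among the 7 genes other than Gsn, 6 passed the filter on low values and 3 were called, Flii and Cfl2 higher and Svil lower, against 28.6% of all features. Their median change was 0.39, beside 0.03 for all tested genes. In 5 of the 6 the groups did not overlap, which was so for 46.3% of all features. These shares were counted over few genes, and when Qk-KO replicate 1 was the lone mutant library Svil was called and the other 5 were not (15.5% of all features).

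Svil encodes supervillin, a large membrane-associated relative of gelsolin that binds actin filaments and myosin II. Svil (ENSMUSG00000024236.17, chromosome 18, 4920540 to 5119299, mm10) had log2 values of 10.07, 9.83 and 9.64 in WT, against 8.87, 8.75 and 8.85 in Qk-KO. Every Qk-KO library lay below every WT library. It fell by 1.02 ± 0.14 (SE, limma adjusted p = 0.00158), or 2.03-fold, and by 0.98 in Qk-KO replicate 1 alone (adjusted p = 0.0159). With each library left out in turn it fell by 0.91 to 1.13 and stayed called. The authors' deposited table has -1.29 ± 0.21. With library size alone the value was 0.03, or -1.06 relative to the median gene of that scaling, which equals the main fit by construction. Svil stood at -0.98, -1.10 and -0.99 relative to its WT mean in Qk-KO replicates 1, 2 and 3. Summed endothelial markers stood at -1.06, -0.97 and -0.96 and mural markers at -1.01, -0.96 and -0.88. Fibroblast (-1.83, -1.15 and -1.06), astrocyte (-2.46, -2.38 and -3.04), precursor (-0.44, -0.59 and -1.55) and border macrophage sums (-0.38, -0.65 and -0.74) fell too. Mature oligodendrocyte, microglia and activated phagocyte sums rose, and the neuronal sum went both ways. The part of any of these cells in the Svil result was not tested.

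Flii encodes flightless I, which joins gelsolin-like repeats to leucine-rich repeats and also acts as a coactivator in the nucleus. Flii (ENSMUSG00000002812.4, chromosome 11, 60714123 to 60727263, minus strand, mm10) had values of 11.34, 11.42 and 11.28 in WT, against 11.72, 11.83 and 11.91 in Qk-KO. The Qk-KO libraries all lay above the WT libraries. It rose by 0.47 ± 0.11 (SE, limma adjusted p = 0.0141), or 1.39-fold. The call was lost with WT replicate 1 left out (adjusted p = 0.0553), and so with WT replicate 3 (0.0630) and Qk-KO replicate 2 (0.0625), and in Qk-KO replicate 1 alone against WT the change was 0.38 (adjusted p = 0.106). In the authors' deposited test Flii passed, at 0.56 ± 0.15 (SE, authors' adjusted p = 0.00109). Flii shares 64 of its 5039 exon bases with Llgl1 on the opposite strand, whose change of 0.24 was not called (limma adjusted p = 0.153).

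Capg encodes a gelsolin relative that caps barbed ends but does not sever, and is abundant in macrophages. Capg (ENSMUSG00000056737.14, chromosome 6, 72544391 to 72562983, plus strand, mm10) had values of 7.61, 7.54 and 7.67 in WT, against 7.56, 8.08 and 9.90 in Qk-KO. Replicate 3 of Qk-KO was 4.92-fold above the WT mean, replicate 2 was 1.39-fold above, and replicate 1 lay among the WT libraries. The mean difference of 0.91 ± 0.52 (SE, limma adjusted p = 0.219) was not called. Without Qk-KO replicate 3 it was 0.21 (adjusted p = 0.469), and in Qk-KO replicate 1 alone against WT -0.05 (adjusted p = 0.911). The summed microglia markers stood 0.86, 0.96 and 2.84 log2 units and the activated phagocyte markers 2.59, 2.29 and 5.03 above their WT means in Qk-KO replicates 1, 2 and 3, both highest in the library in which Capg was highest, and their part in the Capg values was not tested.

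**Figure D3:**
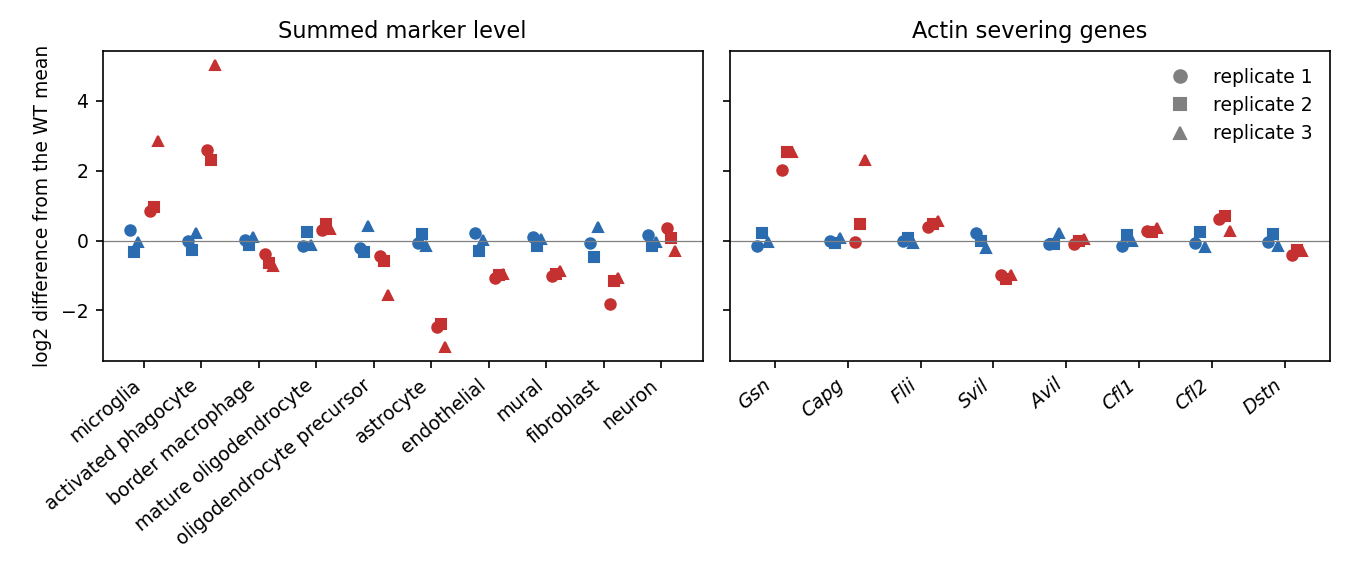
Left, log2 of the summed level of each marker list relative to its WT mean, and right, the 8 genes as log2 difference from the WT mean, 1 symbol per library (WT blue, Qk-KO red). In Qk-KO replicate 3 the activated phagocyte sum stands 5.03 and Capg 2.30 above WT, while Gsn stands 2.54 above.

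Avil, advillin, known from sensory neurons, was near the limit of detection. Avil (ENSMUSG00000025432.11, chromosome 10, 127000709 to 127020994, plus strand, mm10) had a mean normalized count of 4.9, below the filter, and was not tested. Its values were 2.09, 2.09 and 2.40 in WT, against 2.09, 2.18 and 2.24 in Qk-KO. Back-calculated, they give about 2.0 to 2.6 reads in the 4 shallower libraries. As the values are pulled toward the gene's mean, these are not the reads counted in each library. Of its exon bases 165 are shared with Tsfm on the opposite strand. Of other gelsolin relatives outside the 8, Scin was listed at 0 in every library, Vill had a mean of 11.8 and was not tested, and villin, Vil1, had a change of -0.02 ± 0.15 (limma adjusted p = 0.932), which turned positive when 1 library was left out, namely WT replicate 1 (0.02), WT replicate 3 (0.0026) and Qk-KO replicate 1 (0.08).

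Of the ADF/cofilin genes Cfl2 was called and Cfl1 and Dstn were not. Cfl2 (ENSMUSG00000062929.7, chromosome 12, 54858809 to 54862877, minus strand, mm10) had values of 10.64, 10.97 and 10.54 in WT, against 11.34, 11.44 and 10.99 in Qk-KO. Its highest WT library and lowest Qk-KO library nearly touched. It rose by 0.54 ± 0.16 (SE, limma adjusted p = 0.0421), or 1.45-fold. The call was lost with WT replicate 1 left out (adjusted p = 0.131), and so with WT replicate 3 (0.145), Qk-KO replicate 1 (0.0686) and Qk-KO replicate 2 (0.148), and Qk-KO replicate 1 alone against WT gave 0.62 (adjusted p = 0.0628).

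Cfl1 (ENSMUSG00000056201.6, chromosome 19, 5490455 to 5495201, plus strand, mm10) had values of 12.30, 12.61 and 12.45 in WT, against 12.74, 12.70 and 12.83 in Qk-KO, a difference of 0.30 ± 0.12 (SE, limma adjusted p = 0.104). Dstn (ENSMUSG00000015932.8, chromosome 2, 143915320 to 143943324, plus strand, mm10) had values of 11.48, 11.69 and 11.37 in WT, against 11.10, 11.24 and 11.23 in Qk-KO, a difference of -0.33 ± 0.12 (SE, limma adjusted p = 0.0756). For both genes the groups did not overlap, which was so for 46.3% of all features, with Cfl1 above and Dstn below WT. Qk-KO replicate 1 alone gave 0.28 for Cfl1 (limma adjusted p = 0.280) and -0.42 for Dstn (0.127). In the authors' deposited test Cfl2 passed (0.63, authors' adjusted p = 0.0199). Cfl1 (0.34, authors' adjusted p = 0.0893) and Dstn (-0.39, 0.0655) did not. Both are uncertain in another way. Cfl1 shares 468 exon bases (16.5%) with Snx32 on the opposite strand (0.38, adjusted p = 0.0568) and has 11 processed pseudogenes, of which Gm6180 is 98.8% identical over 498 bases and had a mean normalized count of 23.9. Dstn has a protein-coding near copy, D10Wsu102e, 87.8% identical over 502 bases, with a mean of 430 and a change of 0.11 (adjusted p = 0.620). It also has a processed pseudogene, Gm7495, 91.4% identical over 431 bases, for which no mean normalized count was available.

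Differences between 2 genes within a library do not depend on how libraries are scaled, apart from the shrinkage of the log2 values. Cfl1 minus Dstn, not corrected for length, was 0.82, 0.92 and 1.08 in WT, against 1.64, 1.46 and 1.60 in Qk-KO. All Qk-KO libraries lay above all WT libraries, and the ratio of Cfl1 to Dstn was 1.54-fold higher in Qk-KO. Cfl2 minus Dstn was -0.84, -0.72 and -0.83 in WT, against 0.24, 0.20 and -0.24 in Qk-KO, a 1.82-fold higher ratio, again with no overlap. For Cfl1 minus Cfl2 the groups overlapped (1.66, 1.63 and 1.91 against 1.40, 1.26 and 1.84). A two-sided exact permutation test gave p = 0.1 for each of the first 2 differences, the smallest that 3 against 3 libraries allow, and p = 0.3 for the last (0.15, 0.15 and 0.3 adjusted over the 3 pairs, chosen after the values were seen). Without any 1 library the shift of Cfl1 minus Dstn was 0.57 to 0.70 and that of Cfl2 minus Dstn 0.77 to 1.01.

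**Figure D4:**
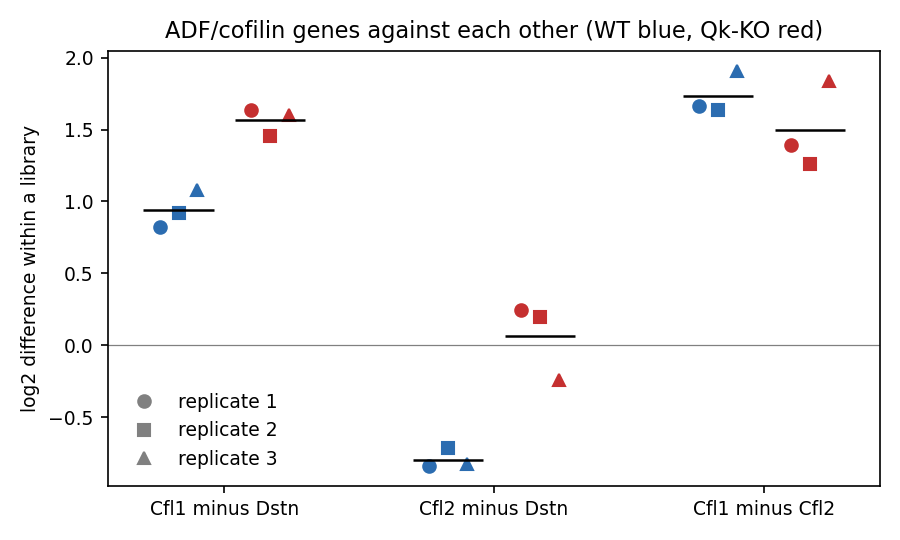
Log2 difference between 2 ADF/cofilin genes within each library (vertical axis), 1 symbol per library, WT blue and Qk-KO red, with a black line at the group mean. Cfl1 minus Dstn lies at 0.82 to 1.08 in WT and 1.46 to 1.64 in Qk-KO, and Cfl2 minus Dstn at -0.84 to -0.72 and -0.24 to 0.24.

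The proteins that act on cofilin or beside it were taken from the lists named here. Regulators of cofilin, kinases and phosphatases that switch it off and on by phosphorylation, had a median change of 0.05 over 11 tested. Of the 11, 3 rose and none fell (27.3% called, beside 28.6% of all features). These were Ssh3, a slingshot phosphatase that reactivates cofilin in its family (0.96 ± 0.14, limma adjusted p = 0.0024), Pak1, a kinase upstream of LIM kinases (0.85 ± 0.14), and Tesk2, a kinase that inactivates cofilin (0.67 ± 0.14). Ssh3 had values of 9.71, 9.47 and 9.36 in WT, against 10.26, 10.54 and 10.63 in Qk-KO. In Qk-KO replicate 1 alone against WT Tesk2 was not called (0.59, adjusted p = 0.102).

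Of 13 cofactors of severing and debranching, 3 rose and 2 fell (median change 0.35, 38.5% called beside 28.6% of all features). Coro1b, a coronin, rose by 1.12 ± 0.14 and Coro1c by 0.57 ± 0.11, while Cap2, a cyclase-associated protein that recycles actin monomers from cofilin, fell by 1.44 ± 0.13 (limma adjusted p = 0.000244). Cap2 values were 8.74, 8.86 and 8.71 in WT, against 7.34, 7.35 and 7.31 in Qk-KO, with no overlap and little spread. Coro2b fell by 0.78 ± 0.23, but its groups overlapped and the call was lost on leaving out WT replicate 2, WT replicate 3, Qk-KO replicate 2 and Qk-KO replicate 3, each in turn (adjusted p = 0.123, 0.125, 0.126 and 0.0624) and with the replicate number as a block (0.0725). In Qk-KO replicate 1 alone Coro2b was at -0.36. With library type in the model the difference is the same by construction, as Qk-KO replicate 1 is the only Qk-KO library of the WT kind. This list had 3 calls in place of 5 in the absence of WT replicate 2, of WT replicate 3 or of Qk-KO replicate 2, and likewise for Qk-KO replicate 1 alone.

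Capping and monomer-binding genes numbered 14, of which 4 rose and 1 fell (median 0.12, 35.7% called beside 28.6% of all features). Tmsb4x, thymosin beta 4, which holds actin monomers, rose by 1.13 ± 0.18, Add1, the barbed-end binding adducin 1, by 0.81 ± 0.17, and Tmod1, a pointed-end cap, by 0.72 ± 0.13. Eps8, a barbed-end capping and bundling protein, fell by 1.58 ± 0.13 (limma adjusted p = 0.000212), from 10.29, 10.32 and 10.44 in WT to 8.90, 8.88 and 8.54 in Qk-KO. Add1 was not called in Qk-KO replicate 1 alone (0.69, adjusted p = 0.0724), where the list had 3 calls.

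Of 21 genes of the branching Arp2/3 complex and its activators 7 rose and 2 fell (median 0.29, 42.9% called beside 28.6% of all features). Arpc1b rose by 1.07 ± 0.24, the branch stabiliser Cttn (cortactin) by 0.67 ± 0.11 and Arpc5 by 0.60 ± 0.13, while the WAVE subunit Wasf3 fell by 1.14 ± 0.17 (limma adjusted p = 0.00266). Arpc1b values were 10.05, 10.11 and 10.18 in WT, against 10.67, 11.19 and 11.71 in Qk-KO, highest in the library where microglia markers were highest, and the part of those cells was not tested. The calls of Arpc1b (adjusted p = 0.0518) and Arpc5 (0.0508) were lost without WT replicate 1, and that of Arpc5 also without Qk-KO replicate 2 (0.0564). Qk-KO replicate 1 alone gave 0.42 for Arpc5 (adjusted p = 0.131), 0.55 for Arpc1b (0.0392) and -0.75 for Wasf3 (0.0137), and with library type in the model the Arpc1b call was lost (0.120). Leaving out WT replicate 1 or 3 brought the calls in this list to 2 or 4, and leaving out Qk-KO replicate 1 or 2 to 14 or 3, while Qk-KO replicate 1 alone gave 4. Over all features the share called also moved, to 17.6%, 22.7% and 16.9% with WT replicate 1, 2 or 3 left out and to 37.2%, 15.6% and 25.3% with Qk-KO replicate 1, 2 or 3 left out.

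Formins, which nucleate unbranched filaments, gave 1 rise and 1 fall among 8 tested (median -0.17), Daam1 at 1.11 ± 0.17 and Fmnl2 at -0.61 ± 0.17. Fmnl2 lost its call on leaving out any single WT library, in order, and on leaving out Qk-KO replicate 2 and then 3 (adjusted p = 0.0901, 0.0976, 0.0801, 0.110 and 0.0647). In Qk-KO replicate 1 alone it was at -0.23 (adjusted p = 0.315). Of 16 actins and filament-binding genes none was called higher and 2 were called lower (median -0.08, 12.5% called). Ezr, the membrane linker ezrin, fell by 1.16 ± 0.16 and the tropomyosin gene Tpm1 by 0.63 ± 0.11. The summed level of the 16 was 94133 to 105971 normalized reads in WT and 120532 to 140657 in Qk-KO. Here 6 were called without Qk-KO replicate 3 and 4 in Qk-KO replicate 1 alone. Across all 7 lists 26 of 84 tested genes (31.0%) were called, 18 higher and 8 lower, beside 28.6% of all features, so the share among actin genes was near the background.

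**Figure D5:**
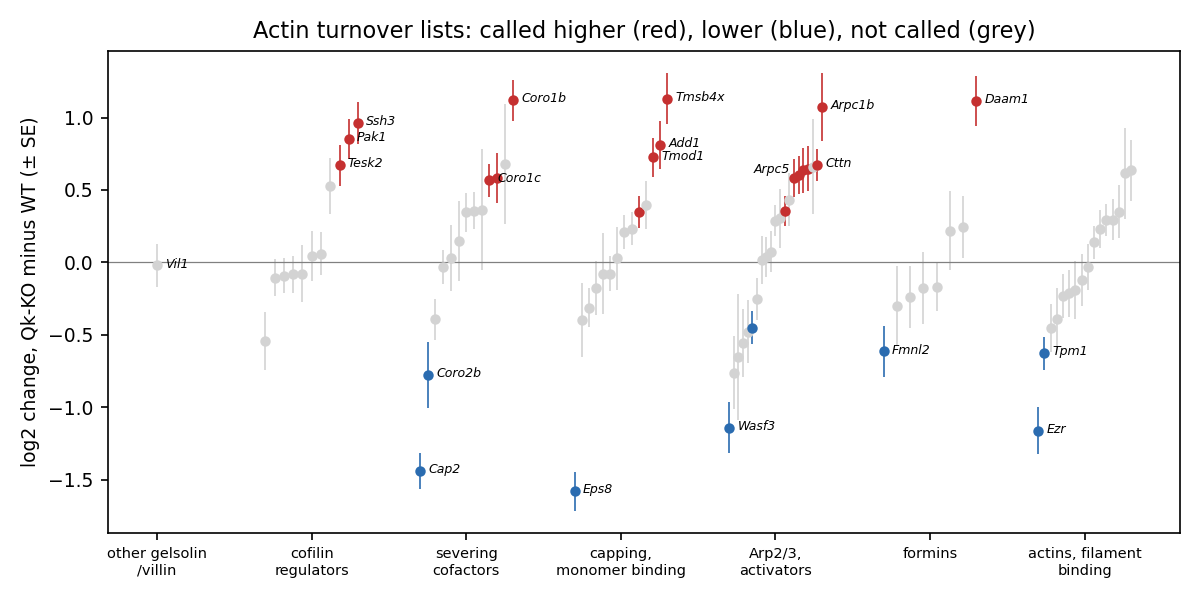
Log2 change in Qk-KO relative to WT, with standard errors, for the tested genes of 7 actin lists, red where called higher, blue where called lower and grey where not called. Eps8 at -1.58 is the lowest and Tmsb4x at 1.13 the highest of the 84 genes.

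The 5 genes whose values lay nearest to the Gsn pattern, among 6357 named genes averaging 500 or more normalized reads, were S100a6, Faah, Slc45a3, C4b and Nap1l3. Nearness was the root-mean-square distance over the 6 libraries of values taken relative to each gene's own WT mean, and was 0.19, 0.31, 0.34, 0.41 and 0.42 log2 units. S100a6, a calcium-binding protein gene, had values of 7.80, 8.19 and 8.12 in WT, against 9.70, 10.44 and 10.75 in Qk-KO. Faah, which encodes fatty acid amide hydrolase, had 8.78, 8.74 and 8.89 in WT, against 10.65, 10.93 and 10.84 in Qk-KO. The differences lay between 1.82 (Nap1l3) and 2.26 (S100a6), beside 2.37 for Gsn, and since the genes were chosen for this pattern no test is given.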

How the data were processed

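Per the submitters' processing notes, the authors worked on build mm10 with TopHat2 2.0.14, FastQC, DESeq2 and featureCounts. Neither annotation release nor strandedness is given in the sources used here. Each library has a deposited column on a log2 scale that behaves as regularized log2 values do. A further deposited column, the mean normalized count, is a signal taken over all 6 libraries. Per the file headers, the deposited comparison holds a log2 fold change with its error, the Wald score and both the raw and the adjusted p-value. Columns were assigned through the sample numbers that the labels carry.

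Since these are no counts, genotype alone was fitted by limma 3.58.1 in R 4.3.3, allowing for a mean-variance trend and adding no pseudocount, to the 15153 features whose mean normalized count was 20 or more. Size factors (0.447 to 0.617 for the 4 shallower libraries, 3.78 and 4.15 for Qk-KO replicates 3 and 2) came from the steps of the lowest mean normalized counts, and gave approximate reads per library. Reads per kilobase used back-transformed values and the union of GENCODE M21 exons, in which 46488 of 46983 identifiers were found. Promoter windows are from RefSeq (GRCm38.p6), where 7 of the 8 genes matched; 3′ UTRs are those of the GENCODE M21 basic protein-coding transcript with the longest coding sequence. Near copies were found with blastn.

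The 8 genes and the lists were chosen with earlier results of these data known. Named genes are the 8, in each list the called genes of lowest adjusted p, at most 4 (the 2 most abundant tested genes if fewer than 2 were called), and the 5 genes nearest to Gsn. Alternatives were each library left out, a replicate block, library type or number series in the model, Qk-KO replicate 1 alone, other filters (none, or 100), scaling by library size, the authors' test, quality weights and no trend.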

Additional observations from a re-analysis of the deposited data

How the results depend on the processing

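The number of called features was 2370 to 5633 when each library was left out in turn, 2258 with library type in the model, 2355 with Qk-KO replicate 1 alone against WT and 2447 with library size alone, against 4330. Of the genes other than Gsn 1 to 3 were called with a library left out, and 1 (Svil) with library type in the model or Qk-KO replicate 1 alone, against 3. Genes called in the 7 actin lists numbered 16 to 35 with a library left out and 15 with library type in the model, against 26. Capg turned to -0.047 when Qk-KO replicate 1 stood alone. The library type model gave the same value by construction, since its genotype difference is that of Qk-KO replicate 1 from WT. For a gene's change the 2 settings are thus 1 estimate. Scaling by library size alone, with the ribosomal RNA features counted, raised the median change by 1.06. The values of Svil (0.033), Dstn (0.73), Vil1 (1.04), Coro2b (0.28), Fmnl2 (0.44) and Tpm1 (0.43) then turned positive. Capg was called (1.97, limma adjusted p = 0.0228). Relative to the median gene of that scaling, Svil was at -1.06, Dstn at -0.36 and Capg at 0.88. These equal the main fit by construction, since the scaling shifts the differences of all genes by the same amount. Vil1 ranged from -0.115 to 0.0814 with a library left out (0.023 for WT replicate 1, 0.0026 for WT replicate 3) and was 0.0037 under the number series model. With the replicate number as a block 4345 features, 3 of the genes other than Gsn and 27 list genes were called; 4 in place of 2 among actins and filament-binding genes. Same-numbered libraries had deviations from their group means correlated at 0.10, 0.0046 and 0.082, and not every library correlated best with its own number, so the numbers were not taken to pair the samples. Of the genes other than Gsn 2 were called under the number series model, with no filter and without a trend, each of which ended the Cfl2 call (adjusted p = 0.0732, 0.0897 and 0.0556). Depth limits Avil most, at about 2.0 to 2.6 reads in the shallower libraries, as back-calculated from the shrunken values. The causes of these shifts were not tested.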
